A study of Mus musculus with 44 samples.

Results

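Calcium/calmodulin-dependent protein kinase II (CaMKII) is built from the products of 4 genes, Camk2a, Camk2b, Camk2d and Camk2g, and these were followed through every library of a study of translation and poly(A)-tail length in mouse neurons and brain. The members were the rows whose RefSeq identifier carries 1 of these 4 symbols. Each gene had 1 row, NM_177407 for Camk2a, NM_001174053 for Camk2b, NM_001025439 for Camk2d and NM_178597 for Camk2g, out of 17158 identifiers in all, and each of the 4 was listed in 44 of 44 libraries. In the RefSeq annotation of GRCm38.p6, Camk2a lies on the plus strand of chr18:60925632-60988152 with 18 exons, Camk2b on the minus strand of chr11:5969642-6065748 with 20 exons, Camk2d on the plus strand of chr3:126596951-126846326 with 20 exons and Camk2g on the minus strand of chr14:20734873-20794088 with 21 exons. The C57BL6J strain is the one the study names. Cortices of newborn pups, pooled from litters, gave neuronal cultures that were briefly exposed to ara-C, which holds back dividing cells, and harvested at 10 or 14 days in vitro (DIV10, DIV14). At DIV14 the cultures were unstimulated, or received BDNF or glutamate plus glycine (glu/gly) during the last 30 min, or had been infected on day 5 with lentivirus carrying GFP alone or GFP with miR-1 or miR-155 behind a synapsin promoter, which is active in neurons. DIV10 cultures received KCl for 0, 10 or 30 min. The tissues were hippocampi of embryos at day 16, the hippocampus of an adult male and the cortex of an adult male. Visual cortex came from 8 male mice, 6 to 7 weeks old, kept in the dark for 1 week, of which 4 were then exposed to light for 1 h. Only the visual cortex had replicate animals. For the other groups there was a single library of each kind, so their values carry counting intervals and no test.

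CaMKII is among the most abundant proteins of excitatory synapses. Its subunits assemble into a holoenzyme of many kinase domains, which calcium-loaded calmodulin activates and which can then stay active by phosphorylating itself. The α subunit (Camk2a) is the form typical of mature forebrain excitatory neurons, the β subunit (Camk2b) also binds actin, and the γ and δ subunits (Camk2g, Camk2d) are expressed widely in the body. Camk2a mRNA is carried into dendrites and has been studied for a cytoplasmic polyadenylation element (CPE), a U-rich 3′-UTR motif bound by CPEB proteins that can direct the lengthening of a poly(A) tail. The study therefore asked, among other questions, whether stimulation changes tail length and translation of such mRNAs.

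The 3′ UTRs of the members, taken from RefSeq GRCm38.p6, differ in whether they hold that element at all. The CPE was searched as TTTTAT or TTTTAAT on the sense strand of the annotated 3′ UTR. Camk2a had 1 match, TTTTAAT, in a 3′ UTR of 3372 nt, and its first base lay 287 nt from the annotated transcript end. Camk2d had 2 matches, both TTTTAT, in 3565 nt. Camk2b with 2186 nt and Camk2g with 1992 nt had 0. None of the 4 had a match in the last 100 nt. Of all 16882 3′ UTRs, 56.3% held a match anywhere and 18.2% in the last 100 nt, and among the 3062 3′ UTRs of similar length to these 4 the shares were 88.2% and 21.7%. A match is a description of the letters and not of a working site. The Camk2d sites and the last poly(A) signal of 3 members are printed here, 5′ to 3′ with the motif in capitals, to show the sites that were counted. No relation of tail length to them was tested.
Camk2d CPE, first (chr3:126843563-126843592, plus strand): ctttgtatttgtTTTTATttttcttttctt
Camk2d CPE, second (chr3:126844913-126844942, plus strand): caatgtgtccatTTTTATttcttaagaaat
Camk2d poly(A) signal (chr3:126846288-126846317, plus strand): gtcatttcattaAATAAAatcctactgact
Camk2b poly(A) signal (chr11:5969653-5969682, minus strand): cgggaaactgcaAATAAAaaaaaaaaaaaa
Camk2g poly(A) signal (chr14:20734880-20734909, minus strand): ttgaagatatttAATAAAataacctttaaa
Each member held AATAAA in its last 100 nt, as AATAAA or ATTAAA did in 81.7% of all 3′ UTRs. The coding regions of the members shared few 28-mers, between 0% of those of Camk2d and 0.515% of those of Camk2a. Other genes, other isoforms and inexact matches were not compared.

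Depth set how finely each member could be measured. Libraries held 448022 to 7689624 RNA-seq reads on genes, 817114 to 23212489 ribosome-protected fragments (RPFs) and 86841 to 4812273 tail tags. In the cultures Camk2a rested on as few as 32 RNA-seq reads but on 1158 RPFs or more. Markers of excitatory neurons were listed in every ribosome-profiling library, with summed RPF CPM (counts scaled to the total on genes) of 347 to 436 in the cultures with settled labels, 985 in embryonic hippocampus, 1385 in adult hippocampus and 1631 in adult cortex. Intervals are 95% Clopper-Pearson intervals, or for ratios of TE normal approximations on the log scale, and cover counting error only. In bulk samples such as these, fewer cells of a type and less RNA per cell cannot be told apart.

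Footprints of Camk2b exceeded those of Camk2a in the embryo and at DIV10, and Camk2a exceeded Camk2b at DIV14 and in the adult tissues. Levels per length are given as the authors' RPKM of RPFs. Camk2a stood at 8.74 RPKM in embryonic hippocampus, 147 at DIV10, 685 at DIV14, 1541 in adult cortex and 2082 in adult hippocampus. It was the lowest member in the embryo and the highest in both adult tissues, where it ranked 24 among 8075 genes in hippocampus and 31 among 8187 in cortex. Camk2b stood at 180, 278, 515, 490 and 784 RPKM in the same order of samples. Camk2g had 44.9, 57.8, 67.4, 186 and 79.8 RPKM. Camk2d was highest at DIV14 among these samples. It had 32.5 RPKM in the embryo, 121 at DIV10, 229 at DIV14, 111 in adult cortex and 23.5 in adult hippocampus. The samples differ in region and in culture or tissue as well as in age.

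**Figure D1:**
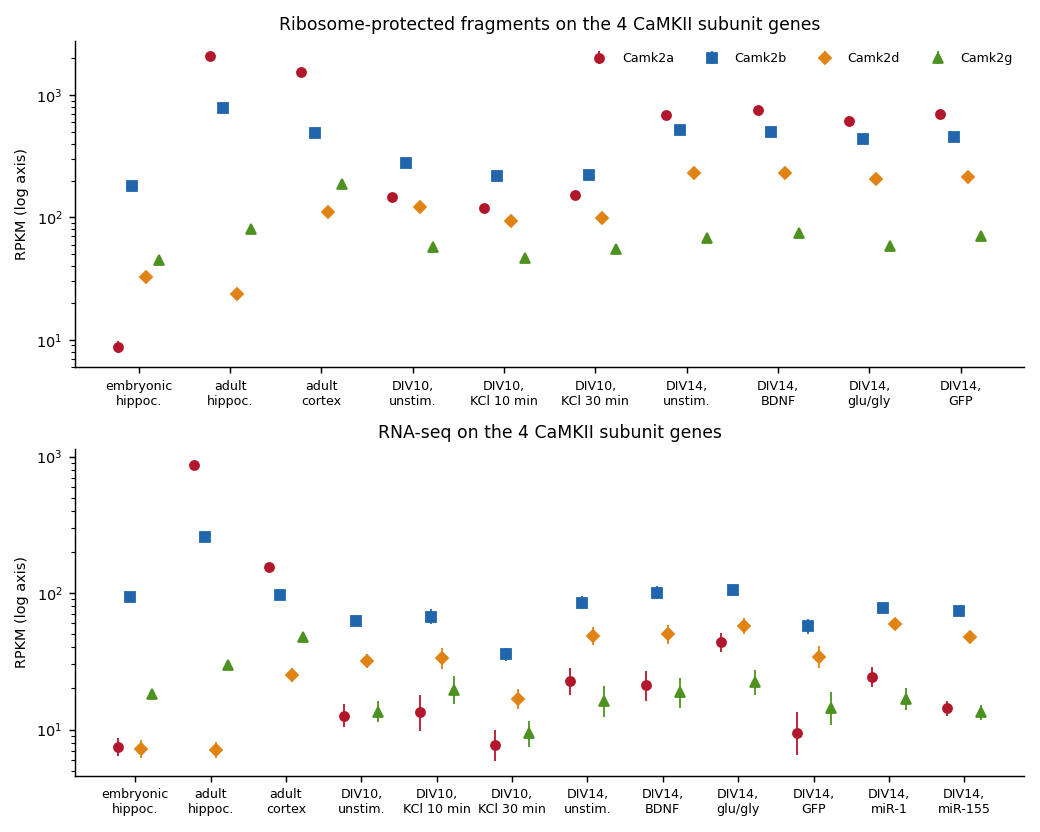
RPKM (log axis) of the 4 subunit genes by sample, for ribosome-protected fragments (top) and RNA-seq (bottom), with 1 library per point and bars for the 95% Clopper-Pearson interval. Camk2a runs from the lowest RPF value of the 4 in embryonic hippocampus (8.74 RPKM) to the highest in adult hippocampus (2082 RPKM), and in every culture its RNA-seq value lies below that of Camk2b.

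Expressed as a share of all CaMKII RPFs per length, Camk2a made up 3.28% in embryonic hippocampus, 24.3% at DIV10, 45.7% at DIV14, 66.2% in adult cortex and 70.1% in adult hippocampus. Camk2b held the largest share in the embryo, 67.7%, and at DIV10, 46.0%, and held second place in the other 3. The Camk2a to Camk2b ratio of RPFs per length was 0.0485 in the embryo, 0.528 at DIV10, 1.33 at DIV14, 2.66 in adult hippocampus and 3.14 in adult cortex. Camk2d accounted for 20.1% at DIV10 and 15.3% at DIV14 but for only 0.790% in adult hippocampus, where Camk2g held 2.69%. Within the 3 DIV10 cultures the Camk2a share was 24.3% to 29.03%, and within the 4 DIV14 cultures 45.7% to 48.6%, so that the 2 ages did not overlap whatever the treatment.

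**Figure D2:**
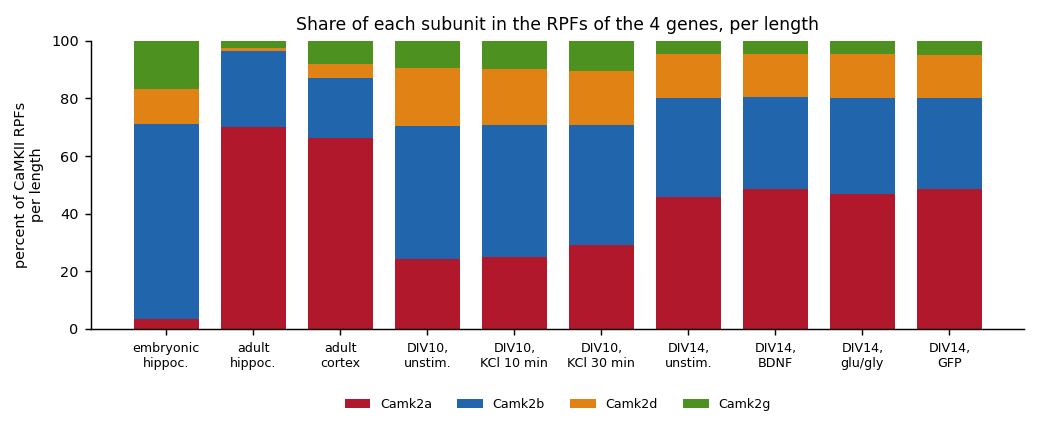
Share of each subunit gene (percent, 0 to 100) in the RPFs per length of the 4 genes, with 1 library per bar. The Camk2a share grows from 3.28% in embryonic hippocampus to 24.3% to 29.03% at DIV10, 45.7% to 48.6% at DIV14 and 66.2% to 70.1% in the adult tissues.

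RNA-seq gave another order. In the 9 cultures Camk2b was the highest of the 4 per length, at 35.6 to 105 RPKM, followed by Camk2d at 16.8 to 59.6 RPKM. Camk2a reached only 7.69 to 43.8 RPKM and made up 8.22% to 19.2% of CaMKII reads per length. Tail tags, which are not divided by length, gave a different leader. Camk2a had the largest share of CaMKII tags in 5 of the 9 cultures, with 36.1% against 33.9% for Camk2b at DIV14 and 33.6% to 38.1% after BDNF, glu/gly, miR-1 and miR-155, while Camk2b had it in the 3 DIV10 cultures and with GFP, at 36.3% against 31.0%. In RNA-seq Camk2g stood beside Camk2a at 9.38 to 22.2 RPKM. In adult cortex Camk2a was at 154 RPKM, 47.7% of the 4, and in adult hippocampus at 874 RPKM, 74.8%. The hippocampal RNA-seq libraries were made from poly(A)-selected RNA, those of adult cortex and 6 cultures after removal of ribosomal RNA, and for the other 3 cultures the selection is not given in the sources used here.

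Between embryonic and adult hippocampus, Camk2a RPFs went from 354 to 81117 counts. Scaled by the RPFs on genes this was a ratio of 246 (221 to 273), and RNA-seq went from 172 to 23879 reads, a ratio of 147 (126 to 171). Camk2b was the next, with a ratio of 4.48 (4.38 to 4.59) in RPFs and 3.43 (3.28 to 3.59) in RNA-seq. Camk2g had 1.83 (1.73 to 1.94) and 2.03 (1.81 to 2.27). Camk2d alone was lower in the adult RPFs, at 0.744 (0.685 to 0.808), while its RNA-seq ratio of 1.22 (0.995 to 1.498) did not exclude no change. In RPFs, 2 of the 4 members were at least 2-fold higher, against 23.9% of the 8917 genes compared, and 0 were at least 2-fold lower, against 32.3%. In RNA-seq 3 of 4 were at least 2-fold higher, against 18.7% of 7347 genes, but by the authors' RPM the ratio of Camk2g was 1.62 and that of Camk2d 0.977, so that 2 of 4 passed. The cellular makeup moved in the same comparison. All 6 progenitor and dividing-cell markers were detected in both libraries, and their summed RPF CPM was 1456 in the embryo and 91.0 in the adult. The astrocyte markers summed to 1193 and 5596. The part of these differences in the CaMKII ratios was not tested.

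By RPFs and RNA-seq, adult cortex and adult hippocampus had the same leading subunit, Camk2a. Scaled by counts on genes, Camk2d and Camk2g differed by at least 2-fold in both assays, and Camk2a did so in RNA-seq. Camk2d RPFs were 5.02 times as high in cortex (4.64 to 5.44, 1706 against 981 counts), and Camk2d RNA-seq 5.41 times (4.49 to 6.52). That placed Camk2d at the 98.8th percentile of RPF ratios and at the 99.7th of RNA-seq ratios. Camk2g was 2.47 times as high in RPFs (2.35 to 2.59) and 2.45 times in RNA-seq (2.19 to 2.73). Camk2a had an RPF ratio of 0.783 (0.771 to 0.795) and Camk2b of 0.661 (0.645 to 0.678). Hence 2 of 4 members were at least 2-fold higher in the RPFs of cortex, against 9.77% of 8221 genes, and 0 at least 2-fold lower, against 8.72%. In RNA-seq the same 2 members were at least 2-fold higher, against 8.28% of 5859 genes, and Camk2a was at least 2-fold lower at 0.270 (0.256 to 0.284), against 7.71%. By the authors' RPM, Camk2g RNA-seq was 73.0 in cortex and 45.6 in hippocampus, which is below 2-fold. Camk2b was 153 and 410, which is past 2-fold lower. Which members passed 2-fold in RNA-seq thus depended on the scaling. Tail tags, not divided by length, gave another picture. Camk2b had 52.4% of the 391 CaMKII tags in hippocampus, against 26.6% for Camk2a, and Camk2a had 58.3% of 1792 in cortex. The tag ratio of cortex to hippocampus was 3.72 (3.04 to 4.59) for Camk2a, where RNA-seq was lower in cortex, and 2.256 (1.40 to 3.82, from 122 against 20 tags) for Camk2d. For Camk2b it was 0.805 (0.680 to 0.954) and for Camk2g 1.07 (0.796 to 1.45). The tags came from PAL-seq v2 in hippocampus and TAIL-seq in cortex. Region, animal, RNA selection and tail assay cannot be told apart in this pair.

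Between DIV10 and DIV14 the subunits parted. Camk2a RPFs were 4.03 times as high at DIV14 as at DIV10 (3.86 to 4.21), the 99.6th percentile of 8036 genes, and tail tags, which count mRNA 3′ ends, 3.14 times (2.59 to 3.82). Its RNA-seq ratio was smaller, 1.62 (1.19 to 2.20, 74 against 107 reads). In RPFs Camk2b had a ratio of 1.602 (1.55 to 1.66), Camk2d of 1.64 (1.55 to 1.73) and Camk2g of 1.01 (0.918 to 1.11). Camk2a was the only member past 2-fold in RPFs, against 3.96% of genes, and in tags, against 5.14% of 9077. In RNA-seq 0 members passed 2-fold, against 2.25% of 5061 genes. The excitatory markers summed to 347 CPM of RPFs at DIV10 and 388 at DIV14. Inhibitory markers summed to 1311 and 2046, astrocyte markers to 2614 and 2574, and progenitor and dividing-cell markers to 278 and 146. Their part in the ratios of the members was not tested. Age and the culture preparation cannot be told apart here.

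Set against adult cortex, the DIV14 culture had lower Camk2a and Camk2g and higher Camk2d. Camk2a was 2.08 times as high in cortex by RPFs (2.02 to 2.14), 2.62 times by tags (2.38 to 2.89) and 6.08 times by RNA-seq (4.81 to 7.78). Camk2g was 2.56 times as high by RPFs (2.35 to 2.78), and Camk2b had 0.880 (0.850 to 0.912). Camk2d RPFs in cortex were 0.450 times those of the culture (0.422 to 0.479). So 2 of 4 members were at least 2-fold higher by RPFs, against 8.41% of 8266 genes, and 1 at least 2-fold lower, against 8.84%. Markers of several cell types differed as well. In RPF CPM, the culture and the cortex had 388 and 1631 for excitatory neurons, 2046 and 1050 for inhibitory neurons, 2574 and 5793 for astrocytes and 61.6 and 3330 for the oligodendrocyte lineage. Their part in the ratios was not tested.

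Translational efficiency (TE) relates footprints to mRNA. It was computed as log2 of RPF RPM over RNA-seq RPM, both in the authors' units, wherever a gene reached 10 RPM in the RNA-seq library. All 4 members passed in each of the 10 samples with both assays. In embryonic hippocampus, Camk2a had a log2 TE of 0.23 (−0.04 to 0.50), below the median of all genes, 0.67, and at the 33.4th percentile. In adult hippocampus it had 1.25, at the 65.5th percentile. In the other 8 samples it stood near the top of the distribution. Adult cortex gave 3.32 (3.25 to 3.397), rank 64 of 5019 genes, and DIV10 gave 3.54 (3.26 to 3.83), rank 50 of 4978. At DIV14 it was 4.92 (4.59 to 5.27), rank 12 of 5128, which is 30.3 RPF RPM per RNA-seq RPM. BDNF gave 5.17, rank 5 of 5206, glu/gly 3.81, rank 18 of 5308, and GFP 6.21 (5.71 to 6.76), rank 1 of 4501. The GFP value rested on 32 RNA-seq reads.

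How high Camk2a stood depended on which assay measured its mRNA. When tail tags stood for mRNA, which was tried after seeing the data, its RPFs per mRNA lay at the 83.8th to 97.9th percentile in cultures and at the 84.4th in adult cortex. In adult hippocampus, where it had 104 tags, the same change moved it from the 65.5th percentile of 6342 genes to the 98.9th of 888. Percentiles with tags, here and in the next sentence, cover only genes that also had at least 50 tags. These numbered 1530 to 3320 in cultures and 2317 in adult cortex. The ratio of tags to RNA-seq reads placed Camk2a at the 85.3rd to 99.02nd percentile of genes in cultures, at the 87.3rd in adult cortex and at the 0.338th in adult hippocampus. The other members were less exceptional. Camk2b had log2 TE of 0.94 in the embryo, 1.603 in adult hippocampus, 2.35 in adult cortex and 1.71 to 2.99 in cultures. Camk2d had 2.16 (1.94 to 2.39) in the embryo, where it was the highest of the 4 at rank 121 of 7443 genes, and 1.48 to 2.65 elsewhere. Camk2g ranged from 1.26 to 2.56.

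The TE of Camk2a was 2.03 times as high in adult as in embryonic hippocampus (1.69 to 2.44), the only member past 2-fold, against 15.8% of 5431 genes at least 2-fold higher. Scaled by reads on genes in place of the authors' RPM, the ratio was 1.67 (1.40 to 2.01), below 2-fold. Its TE at DIV14 was 2.61 times that at DIV10 (1.94 to 3.52), the 99.6th percentile, where 1.18% of 4500 genes were at least 2-fold higher and no other member was. Against DIV14, adult cortex had a Camk2a TE of 0.330 times (0.261 to 0.417) from 74 culture reads, where 12.4% of 4086 genes were at least 2-fold lower. Camk2b, Camk2d and Camk2g had TE ratios between 0.838 and 0.945 in that comparison, and the interval of Camk2b alone, 0.736 to 0.954, excluded 1. Both Camk2a differences shrank when tail tags stood for mRNA, which was tried after seeing the data. DIV14 over DIV10 then had a Camk2a ratio of RPFs per mRNA of 1.29 (1.06 to 1.56), and adult cortex over DIV14 one of 0.793 (0.718 to 0.877), neither past 2-fold. With tags, Camk2b, Camk2d and Camk2g had 1.09, 0.947 and 0.838 for DIV14 over DIV10. For adult cortex over DIV14 they had 0.738 (0.651 to 0.837), 0.801 (0.647 to 0.992) and 1.62 (1.30 to 2.02), so that Camk2a did not stand apart there.

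No stimulus moved a member of the family by 2-fold in RPFs. As a check on the stimuli, RPFs of the immediate-early gene Fos were 26.8 times as high after BDNF, 17.2 times after glu/gly, 2.20 times after KCl for 10 min and 33.8 times after KCl for 30 min. For Camk2a, RPF CPM was 1408 in the unstimulated DIV14 culture, 1632 after BDNF and 1438 after glu/gly, and 349 in the unstimulated DIV10 culture, 320 after KCl for 10 min and 380 after 30 min. The corresponding ratios were 1.16 (1.12 to 1.202), 1.02 (0.981 to 1.06), 0.916 (0.864 to 0.971) and 1.09 (1.02 to 1.16). The GFP culture, which was not stimulated, differed from the unstimulated DIV14 culture by 1.08 (1.04 to 1.12), which lies near the size of these ratios. The RPF ratios of Camk2b were 0.824 to 1.02, of Camk2d 0.854 to 1.05 and of Camk2g 0.919 to 1.15. At least 2-fold higher RPFs were found in 0.241% of genes after BDNF, 0.206% after glu/gly, 0.093% after KCl for 10 min and 0.388% after 30 min, and at least 2-fold lower in 0.571%, 0.347%, 2.66% and 2.69%. BDNF and glu/gly share 1 control library, and both KCl times share another.

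RNA-seq and tags parted for Camk2a after glu/gly. RNA-seq had 156 reads against 74, a ratio of 1.78 (1.34 to 2.38), whereas tags numbered 558 against 692, a ratio of 1.05 (0.939 to 1.18). The TE of Camk2a after glu/gly was 0.464 times that of the control (0.351 to 0.613), at the 2.54th percentile of changes. Camk2a was the only member at least 2-fold lower in TE after glu/gly, against 4.1% of 4731 genes. That difference did not pass 2-fold by reads on genes, at 0.573 (0.433 to 0.757), and with tags for mRNA the ratio was 0.971 (0.863 to 1.09). After KCl for 30 min Camk2a TE was 1.72 times (1.25 to 2.37) that of the DIV10 control, with 62 RNA-seq reads. By reads on genes it was 1.27 times (0.919 to 1.74), an interval that includes 1, and with tags 1.32 times (1.02 to 1.69).

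Among the partner genes listed for the kinase, only Camk2n1 passed 2-fold in RPFs between a stimulated library and its control. Camk2n1 encodes a small protein inhibitor of CaMKII, and 187 nt of its reading frame were counted. Its RPFs numbered 289 in the unstimulated DIV10 culture, 31 after KCl for 10 min and 23 after 30 min, which are 30.5, 5.62 and 7.54 CPM. At 10 min this was 0.184 times the control (0.123 to 0.267), the lowest ratio of 7529 genes, and at 30 min 0.247 times (0.154 to 0.379), rank 6 from the bottom of 7733. At DIV14 there were 417 RPFs without stimulus, 166 after BDNF and 182 after glu/gly. The ratios were 0.467 after BDNF (0.388 to 0.560), rank 29 from the bottom of 7879, and 0.673 after glu/gly (0.562 to 0.803). Tail tags of Camk2n1 had ratios of 0.840 (0.639 to 1.10), 1.16 (0.920 to 1.47), 1.30 (1.16 to 1.45) and 1.24 (1.10 to 1.39) in the same order of stimuli, so that the interval of none lay below 1 as it did for RPFs. Its RNA-seq ratios were 1.38 (0.939 to 2.04) after BDNF and 1.17 (0.799 to 1.71) after glu/gly. The GFP culture, without stimulus, was at 0.635 times the unstimulated culture in RPFs (0.530 to 0.758). The related inhibitor gene Camk2n2 had RPF ratios of 0.729 (0.609 to 0.870), 0.663 (0.522 to 0.834), 0.870 (0.702 to 1.08) and 0.790 (0.620 to 1.00) after KCl for 10 and 30 min, BDNF and glu/gly. With 1 library per culture, how far such ratios vary between cultures was not measured, other than by the GFP culture.

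Camk2a carried the longest tails of the family in every sample with mean lengths. In the 9 cultures its mean tail was 126 to 143 nt, and in adult cortex 117 nt, at the 94.1st to 99.4th percentile of genes with at least 50 tags. The medians over genes were 99.5 to 112 nt in the same libraries. Camk2b followed with 115 to 131 nt in cultures and 111 nt in adult cortex. Camk2d had 98.3 to 124 nt and 102.5 nt, and Camk2g 112 to 122 nt and 109 nt. These levels were measured by TAIL-seq and are not comparable with those of the mice below, which were measured by PAL-seq v2. In adult hippocampus, where the deposited values were taken as medians, Camk2a had 60.5 nt, Camk2b 63.0 nt and Camk2g 58.5 nt, beside a median of 54.0 nt over genes. The embryonic library had 1 to 19 tags per member, too few for a length.

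**Figure D3:**
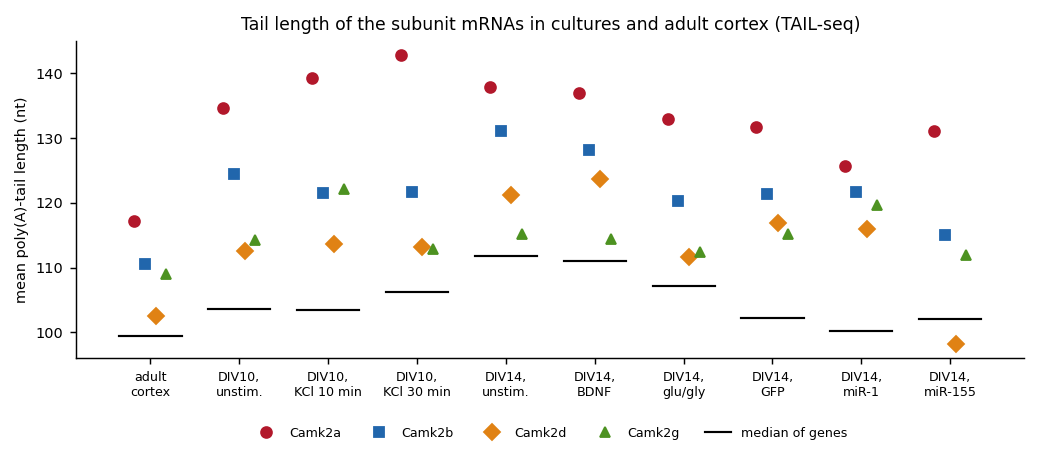
Mean poly(A)-tail length in nt of the 4 subunit mRNAs by TAIL-seq, with 1 library per point and a black line for the median over genes with at least 50 tags. Camk2a has the longest tail of the 4 in all 10 libraries, from 117 nt in adult cortex to 143 nt after KCl for 30 min, and Camk2d with miR-155 is the only point below the median line.

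The mean tail of Camk2a was not longer after BDNF or glu/gly in these libraries. The mean went from 138 to 137 nt with BDNF, a change of −0.894 nt beside a median gene at −1.04 nt, and to 133 nt with glu/gly, −4.95 nt beside −4.68 nt. With KCl, it went from 135 to 139 nt at 10 min and to 143 nt at 30 min. The change at 30 min was 8.11 nt, at the 82.5th percentile, beside a median gene at 2.22 nt, and rested on 128 and 136 tags. Camk2b tails were −2.94, −10.8, −2.96 and −2.81 nt from their control after BDNF, glu/gly, KCl for 10 min and KCl for 30 min. For Camk2d, which holds the 2 CPE matches printed above, the changes were 2.41, −9.49, 1.05 and 0.582 nt. Camk2g had −0.782, −2.82, 7.85 and −1.45 nt. Across the family no stimulus moved all 4 members to the same side of the median gene. Between DIV10 and DIV14, the median gene had tails longer by 6.93 nt, Camk2a by 3.14, Camk2b 6.65, Camk2d 8.61 and Camk2g 1.01 nt. Adult cortex had shorter tails than the DIV14 culture for every member, with differences of −20.6, −20.5, −18.7 and −6.22 nt in the order Camk2a, Camk2b, Camk2d and Camk2g, beside −12.4 nt for the median gene.

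In the lentivirus cultures, Camk2a mRNA was low in the GFP control. It had 32 RNA-seq reads, 0.491 times the level of the unstimulated culture (0.314 to 0.753), where 1.38% of 4838 genes were at least 2-fold lower, and 0.661 times by tags (0.556 to 0.783). Its RPFs were 1.08 times as high (1.04 to 1.12). Its TE was 2.44 times as high (1.61 to 3.70), where 1.33% of 4287 genes were at least 2-fold higher, and 1.63 times (1.37 to 1.94) with tags for mRNA. Relative to that GFP library, Camk2a RNA-seq was 2.12 times as high with miR-1 (1.44 to 3.22), where 0.713% of 4771 genes were at least 2-fold higher, and 1.499 times with miR-155 (1.03 to 2.24). By tags the ratios were 1.39 (1.14 to 1.69) and 1.37 (1.13 to 1.67). Both miRNA comparisons share the GFP library and its low count. No member's annotated 3′ UTR held a 7-nt or 8-nt match to the seed of miR-155, which 11.8% of all 3′ UTRs did. Among the 3062 3′ UTRs of similar length to these 4 the share was 23.2%. The seed, bases 2 to 8 of the mature miRNA, is shown in capitals, from RefSeq at chr16:84714143-84714165.
mmu-miR-155-5p: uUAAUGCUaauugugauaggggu
Camk2d had the largest tail difference of the 4 members with miR-155. Its mean tail was 117 nt with GFP (118 tags) and 98.3 nt with miR-155 (196 tags), a change of −18.6 nt at the 0.841st percentile of 1783 genes, beside −0.860 nt for the median gene. Its median tail moved by −17.5 nt. Camk2d mRNA was not lower in that culture, at 1.38 times by RNA-seq (1.14 to 1.68) and 1.35 times by tags (1.07 to 1.71). The other members differed from GFP by −0.660 nt (Camk2a), −6.37 nt (Camk2b) and −3.24 nt (Camk2g).

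The visual cortex of 8 mice was the only replicated comparison and asked whether 1 h of light after a week of darkness changed the mRNA or its tail. Camk2a supplied 64.7% to 71.2% of the CaMKII tags in the 8 mice, and Camk2g, Camk2b and Camk2d followed in that order in every mouse. Camk2a tag CPM, scaled by TMM (a correction for library composition), was 1585, 1538, 1820 and 1859 in dark mice 1 to 4 and 1495, 1723, 1719 and 1715 in light mice 1 to 4. The groups overlapped, and the log2 light effect was −0.03 ± 0.08 (SE, n = 4 and 4, edgeR adjusted p = 0.951). Camk2b had 252, 284, 272 and 283 in the dark and 290, 336, 319 and 307 in the light. Every light mouse was above every dark mouse, as was the case for 3.13% of the 9554 genes tested, and the effect of 0.20 ± 0.09 gave an unadjusted p of 0.0416 and an adjusted p of 0.505 by edgeR. An exact two-sided permutation test on Camk2b alone gave p = 0.0286, the smallest that 4 against 4 mice allow. That value follows from the separation of the groups and adds nothing to it. The same exact permutation test gave p of 0.686, 0.771 and 0.657 for Camk2a, Camk2d and Camk2g, without adjustment over the 4 genes. Camk2d had 101 to 117 in the dark and 80.1 to 136 in the light, an effect of −0.08 ± 0.14 (edgeR adjusted p = 0.923). Camk2g had 313 to 438 and 365 to 388, an effect of 0.02 ± 0.10 (edgeR adjusted p = 0.983). Thus 0 of 4 members were called, against 1.34% of 9554 genes, of which 116 were higher and 12 lower. At an unadjusted p under 0.05 by edgeR 1 of 4 members passed, against 9.45% of the genes tested, and DESeq2 called 0 of 4, against 0.87% of 14480 genes. Fos, with a log2 effect of 3.91 (edgeR adjusted p = 1.42e-06), and Npas4, with 2.84 (edgeR adjusted p = 5.17e-05), were among the genes called higher.

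Tail lengths in the visual cortex differed between mice of the same group. Camk2a had mean tails of 113.9, 108.2, 94.2 and 96.4 nt in dark mice 1 to 4 and 99.2, 111.5, 115.0 and 98.3 nt in light mice 1 to 4. The median over genes in the same libraries was 92.4, 90.7, 77.5 and 80.0 nt and then 83.3, 94.1, 97.5 and 81.7 nt. Both sets of values rose and fell together from mouse to mouse, and the Camk2a tail stood 15.8 to 21.5 nt above the library median in all 8 mice, on average 17.4 ± 1.76 nt (SD, n = 8). In each mouse that placed it between the 93.2nd and the 97.4th percentile of genes. The light effect on Camk2a tails was 2.82 ± 6.68 nt (SE, limma, 95% interval −10.3 to 15.9, adjusted p = 0.999). For Camk2b, Camk2d and Camk2g it was 0.385, 4.99 and 0.415 nt with the same standard error and limma adjusted p of 0.999 each, beside 3.75 nt for the median gene. This standard error was drawn by limma from all genes tested and is not the spread of any single gene between mice. None of the 4 was called, against 0.231% of 4321 genes, and 0 of 4 had an unadjusted p under 0.05 by limma, against 3.93%. With each mouse centred on its median gene, a step added after seeing the data, the Camk2a effect was −1.20 ± 2.24 nt (SE, limma, 95% interval −6.14 to 3.75), and those of Camk2b, Camk2d and Camk2g were −3.63, 0.974 and −3.60 nt, so that 3 of the 4 turned from positive to negative. Astrocyte markers summed to 3596 to 4440 CPM of tags in the dark and 3222 to 3520 in the light, which did not overlap, and excitatory markers to 2209 to 2510 and 1988 to 2316. The ranges of all marker lists other than astrocytes overlapped. Of single genes, 243 of 9554 were lower in the light without overlap. By edgeR 0 of 6 astrocyte markers were called, and Aldh1l1 was higher in the light, at a log2 effect of 0.18. The part of the cellular makeup in these values was not tested.

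**Figure D4:**
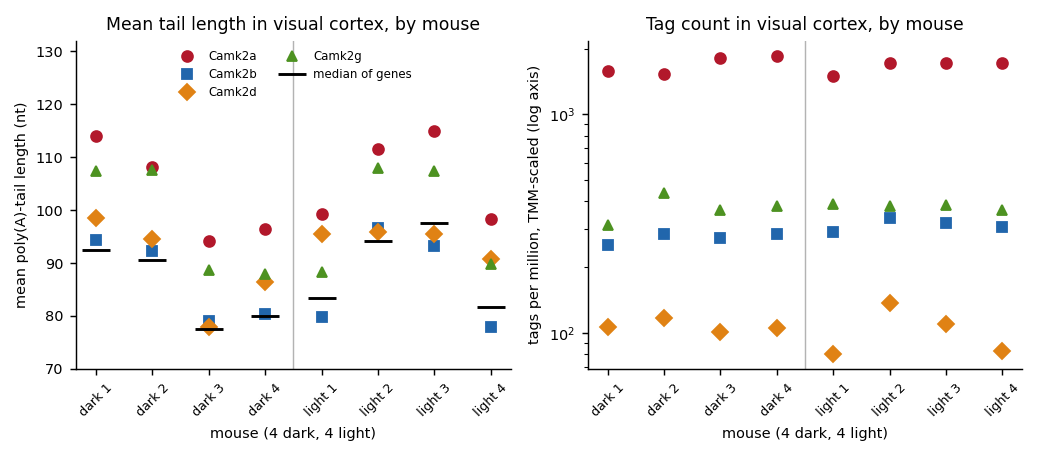
Mean poly(A)-tail length in nt (left, axis from 70 nt) and TMM-scaled tag CPM (right, log axis) of the 4 subunit genes in 4 dark and 4 light mice, with 1 point per mouse and a black bar for the median over genes with at least 50 tags in every mouse. Camk2a is above the other 3 members in both panels in all 8 mice, and dark and light mice overlap for every gene except the tags of Camk2b (252 to 284 against 290 to 336).

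Camk2a had the longest tails of the family in every mouse, and Camk2g had longer tails than Camk2b. Camk2a tails were longer than those of Camk2b by 17.9 ± 2.65 nt (SD, n = 8), in 8 of 8 mice. They were longer than those of Camk2d by 12.7 ± 5.21 nt and of Camk2g by 6.48 ± 3.22 nt, again in 8 of 8 mice each. Camk2b minus Camk2g was −11.4 ± 2.72 nt, with Camk2g longer in 8 of 8 mice. Each of these 4 differences had an exact two-sided sign-flip permutation p of 0.00781, the smallest that 8 mice allow, and 0.0117 after adjustment over the 6 pairs. The remaining 2 pairs had smaller margins. Camk2d exceeded Camk2b in 6 of 8 mice, and the difference Camk2b minus Camk2d was −5.15 ± 6.08 nt (exact p = 0.0313, adjusted 0.0375). Camk2g exceeded Camk2d in 6 of 8 mice, with Camk2d minus Camk2g at −6.24 ± 7.49 nt (exact p = 0.0469, adjusted 0.0469). The means over the mice were thus in the order Camk2a, Camk2g, Camk2d and Camk2b, an order that 4 of the 8 mice showed in full, whereas Camk2b had the second longest tail in 9 of the 10 TAIL-seq libraries. Assay, tissue and animal cannot be told apart between these sets.

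Several groups of genes that work with CaMKII were higher in adult than in embryonic hippocampus. Counts here are of genes at least 2-fold higher or lower in RPFs, with the shares over all genes given above. Both inhibitor genes were higher, Camk2n1 with a ratio of 30.1 (27.2 to 33.3) and Camk2n2 with 3.42 (2.94 to 3.98). Of 6 genes for calmodulin and its stores, 5 were higher and 1 lower. Nrgn, which encodes the postsynaptic calmodulin store neurogranin, had 32044 RPFs in the adult and 10 in the embryo, and Gap43, its growth-cone counterpart, had a ratio of 0.348. Of 7 other calmodulin-dependent kinases 6 were higher, with Camkv, a kinase-like protein without known activity, at 22.2 and Camk1 at 0.937. Of 11 synaptic partners and substrates 10 were higher, counting Grin2a, an NMDA-receptor subunit that was not listed in the embryonic library, and Actn2 had 1.13. Of 5 phosphatase genes compared 2 were higher, with Ppp3ca, a calcineurin catalytic subunit, at 13.5, and 1 was lower, Ppp1ca at 0.361. Of 4 CPE-binding and polyadenylation factors compared 3 were higher, counting Cpeb1, which was not listed in the embryonic library, and Cpeb4 had 1.92.

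In RPFs few of these genes passed 2-fold under the stimuli. After BDNF, glu/gly and both KCl times, 0 genes for calmodulin and its stores, other kinases, phosphatases, synaptic partners or CPE-binding factors did so in either direction. Camk2n1 was the only gene of the lists to pass 2-fold in RPFs, lower after BDNF and both KCl times. The other measures gave further genes past 2-fold. By tags after KCl for 10 min, 2 of 3 CPE-binding and polyadenylation factors compared were at least 2-fold higher, the highest being Cpeb2 at 2.56. Camk1d had a ratio of 0.399. After KCl for 30 min, tags had ratios of 3.22 for Cpeb2, 2.65 for Shank3 and 2.03 for Camk4, and RNA-seq had 2.03 for Calm2. These ratios are given without intervals and without the share of all genes past 2-fold. They are therefore not read as results about these genes. The tag libraries held 604775 tags on genes in the unstimulated DIV10 culture, 574544 after KCl for 10 min and 776935 after 30 min. In the mice, 0 genes of the 6 lists were called for expression or tail length by edgeR or limma, with 2 inhibitors, 5 calmodulin genes, 7 kinases, 6 phosphatases, 6 synaptic genes and 4 CPE-binding and polyadenylation factors tested for expression.

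The genes whose RPF levels ran most like each subunit over the 10 samples with settled labels were found by the root mean square difference of centred log2 RPM among 8117 genes. Camk2a was followed most closely by Scn2b, a sodium-channel subunit, at 0.18, then by Hpcal4 at 0.33 and Cracdl at 0.35, while the median gene lay at 2.31 from it. Camk2b was closest to Pnmal2 at 0.14, to the unnamed NM_001114545 at 0.15 and to Iqsec2 at 0.17, Camk2d to Myadm at 0.24, Slc41a2 at 0.31 and Clec2l at 0.36, and Camk2g to Dynlt3 at 0.19, Grm3 at 0.21 and Btbd10 at 0.21. Within the family the closest pair was Camk2b and Camk2g at 0.54, and the farthest Camk2a and Camk2d at 2.12. These distances describe 10 libraries, of which several share an age, a preparation or a tissue.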

How the data were processed

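Per the file headers, the deposited ribosome-profiling and RNA-seq values were counts of reads in 1 coding sequence per gene, without its first 50 nt, and the authors' RPM and RPKM values. The submitters' notes name STAR 2.4.2 and bedtools. The deposited tail files gave a count of tags and a mean and median length in nt per gene, or for hippocampi a single length taken as a median, mapped by the authors to mm10. Lengths were not used below 50 tags. The labels of 2 ribosome-profiling libraries from miRNA cultures contradict each other, so these were put in no group and no TE was computed for miRNA cultures. Ratios were scaled by the counts on genes. Percentiles cover genes with a mean of at least 10 RPM over both libraries. Mice were tested with edgeR 4.0.16 (TMM, filterByExpr, quasi-likelihood) and limma 3.58.1 under R 4.3.3, with Benjamini-Hochberg adjustment over all genes at 0.05, and with DESeq2 1.42.0 as an alternative. Both tests were checked on simulated data. The simulated tails varied independently between genes, without the shifts shared by a whole library that the mice had. For tails that check therefore does not cover the setting of these mice. Annotation was RefSeq GRCm38.p6. The members, lists of partner genes and markers were chosen with earlier results of these data known. The text names the members, genes of these lists and the 3 most similar genes per member. Mice carry separate labels, and their same replicate numbers were not treated as pairs. The authors' combined tables were not used.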

Additional observations from a re-analysis of the deposited data

Results flagged for a closer look

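In the groups of 4 mice, 24 sets of values of the 4 members were examined for a mouse far from the other 3, and 3 stood out, where chance gives about 1 in 20. The TMM-scaled Camk2a tags of light mouse 1, at 1495 CPM, lay below the 1715 to 1723 of the other light mice. The Camk2b tail of light mouse 2 stood 2.42 nt above its library median, whereas the other light mice had differences of −4.18 to −3.46 nt. The mean Camk2d tail of light mouse 4, 90.8 nt from 136 tags, was below the 95.4 to 95.9 nt of the other light mice.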

How the results depend on the processing

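Light effects on expression are log2 values and on tails nt. With upper-quartile scaling the Camk2g expression effect was −0.0025. Centring each mouse on its median gene, chosen after seeing the data, gave tail effects of −1.20 for Camk2a, −3.63 for Camk2b and −3.60 for Camk2g. Leaving out 1 mouse gave expression effects of −0.065 to 0.024 for Camk2a, 0.16 to 0.24 for Camk2b, −0.24 to 0.020 for Camk2d and −0.056 to 0.12 for Camk2g, and tail effects of −0.18 to 6.403, −2.83 to 3.37, 1.17 to 8.05 and −2.89 to 3.79. Over all alternatives no member was called, the lowest adjusted p being 0.421 by edgeR, DESeq2 or limma. Leaving out 1 mouse moved the called genes to 100 to 150 for expression and 1 to 21 for tails, against 10 (21 without light mouse 4, 19 without dark mouse 1, 2 without dark mouse 2 or light mouse 3, and 1 without dark mouse 3, dark mouse 4 or light mouse 2). Tail calls were 3 with at least 200 tags, 1 on the log2 scale, 1 with the replicate block and 3 after centring, against 10. Under the replicate block expression calls were 113 against 128, and without a filter on low counts 192. Same-numbered mice did not deviate together (correlations −0.20 to 0.03 for expression), and no mouse correlated best with its own number. For adult against embryonic hippocampus, median-of-ratios scaling gave RNA-seq ratios of 179, 4.19 and 2.47 for Camk2a, Camk2b and Camk2g, and RPF ratios of 306, 5.58, 0.926 and 2.28 for Camk2a, Camk2b, Camk2d and Camk2g, so that Camk2g passed 2-fold in RPFs. The authors' RPM gave RNA-seq ratios of 117, 2.75, 0.977 and 1.62, so that 2 and not 3 members passed 2-fold, and 4.35 for Camk2b RPFs. TE differences by reads on genes were 0.74, 0.38 and −0.15 for Camk2a, Camk2b and Camk2g, log2, so that Camk2a no longer passed 2-fold. With tags for mRNA, the Camk2a TE ratio of cortex to adult hippocampus turned from 4.19 to 0.211. Tags in place of RNA-seq gave 1.05 for Camk2a and 0.741 for Camk2g after glu/gly, 1.14 and 1.18 for Camk2b after KCl for 10 and 30 min, 1.02 for Camk2d after KCl for 30 min, and 1.39 for Camk2a and 1.09 for Camk2d with miR-1. The median tail of Camk2d after KCl for 30 min moved by 8 nt. Camk2a shares without division by length were 2.91%, 67.3% and 63.5% in embryonic hippocampus, adult hippocampus and cortex, 22.3%, 22.7% and 26.7% at DIV10, and 42.9%, 45.6%, 43.8% and 45.8% at DIV14. An alternative with the authors' own TE was not run because their combined tables were not used, and Camk2d had no value with at least 200 tags in every mouse.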

Other observations

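The RPF libraries of 2 lentivirus cultures could not be assigned to a miRNA because their labels contradict each other. They held 817114 and 6428048 RPFs on genes. Camk2a stood at 1250 and 1210 RPM in them, Camk2b at 1000 and 904 RPM, Camk2d at 484 and 420 RPM and Camk2g at 147 and 108 RPM. Camk2a made up 46.2% and 48.6% of the CaMKII RPFs per length in them.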
